A study of Mus musculus with 9 samples.

Results

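A set of 10 transcripts that mark T cells, natural killer (NK) cells and their cytotoxic granules were followed in RNA sequencing libraries of monocytes isolated from mouse spleens. The members were the rows of the deposited tables named Trac, Trbc2, Cd3e, Cd3d, Cd3g, Gzma, Gzmb, Prf1, Nkg7 and Ncr1, found by gene symbol. They are 10 of 46072 listed genes, of which 26108 were above 0 in at least 1 library, and each of the 10 was above 0 in at least 4 of 9 libraries. Both tables held 1 row for each symbol. No member's level rose or fell past the adjusted threshold in any of the 3 contrasts between groups. Trbc2 and Cd3d, subunits of the T cell receptor complex, had lower normalized counts in each of the 3 Van mice than in each of the 3 Con mice, but neither passed the adjusted threshold. Over all genes, 7.84% were separated in the same way. For Cd3d the separation was narrow and was absent when levels were scaled to transcript length and library size.

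Libraries came from 9 female C57BL/6 mice, 3 in each group. Con mice had water by gavage over 6 days. Van mice received the antibiotic vancomycin at 2 mg per mouse per day, as 2 gavages of 1 mg, over the same 6 days, and a rest without antibiotic followed, of 8 days for the sequenced mice and 6 to 8 days in the labels. VanLip mice had the same vancomycin course and were also given L654, a lipid of gut bacteria that the receptor TLR2 recognises, by retro-orbital injection on days 7, 9 and 11. All groups shared the gavage and the rest, and the cells were not stimulated after isolation.

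The T cell receptor is a pair of chains, alpha and beta, whose constant parts are encoded by Trac and by Trbc1 or Trbc2, held together with the CD3 subunits that carry the signal into the cell. NK cells lack this receptor and use others, among them NKp46, the product of Ncr1. Both NK cells and cytotoxic T cells store perforin, which opens the target membrane, and granzymes, proteases that enter through it, in granules of which the Nkg7 protein is a part. Monocytes are myeloid cells and use none of these genes as lineage markers. The isolation was a negative selection, in which antibodies against CD3e, CD45R, CD117, Ly-6G, NK1.1 and Siglec F took away other cells on magnetic beads, so the T and NK markers here describe RNA left after that removal. In bulk libraries fewer cells of a type and less RNA per cell cannot be told apart.

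The Trbc2 value depends on how reads are divided between 2 genes, so part of both sequences is shown. Over their first 500 coding bases, Trbc1 and Trbc2 on chromosome 6 differ at 19 positions (96.2% identical), and bases 1 to 259 are the same in both. The 120 bases below are transcript positions 378 to 497 in GENCODE M21 (build GRCm38), in the direction of transcription, and hold 18 of the differences. Capitals mark the bases that differ between the genes.
Trbc1: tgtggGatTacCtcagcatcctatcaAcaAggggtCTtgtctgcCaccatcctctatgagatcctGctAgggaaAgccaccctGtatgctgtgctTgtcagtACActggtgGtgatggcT
Trbc2: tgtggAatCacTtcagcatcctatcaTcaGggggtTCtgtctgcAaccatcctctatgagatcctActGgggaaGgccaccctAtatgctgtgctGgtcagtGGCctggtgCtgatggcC
Of all 100-base stretches of the annotated Trbc2 transcript, 30.9% also occur in Trbc1, and 20.3% of its 150-base stretches do. For Cd3e, 0.930% of the 100-base stretches occur in the antisense gene Gm48719 and none at 150 bases. The other 8 members share no stretch of either length with another annotated transcript.

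On GRCm38 the CD3 genes lie side by side on chromosome 9, Cd3g at 44969572 to 44980431, Cd3d at 44981786 to 44987339 and Cd3e at 44998740 to 45009627. Cd3d is read from the plus strand and its neighbours from the minus strand, and Cd3e overlaps Gm48719 on the opposite strand and Gm48720 on its own. Trac (54220521 to 54224206) and Gzmb (56258838 to 56262260) are both on chromosome 14, and Trbc2 is on chromosome 6 at 41546730 to 41548352. Gzma is on chromosome 13 (113093825 to 113100981) and Prf1 on chromosome 10 (61297833 to 61304680). Ncr1 (4337724 to 4345164) and Nkg7 (43437073 to 43438249) are far apart on chromosome 7.

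Depth was not equal between groups. Expected counts summed to 43070361 to 61383806 per library in Con and Van and to 170503470 to 184720704 in VanLip. A single read most often counted as 1.33 in Con and Van but as 2.00 in VanLip, the values that reads of 100 and 150 bases take under the default read length of tximport. On those lengths the libraries held 32302770 to 46037855 reads in Con and Van and 85251735 to 92360352 in VanLip. The study's methods give a single read length for the series, the shorter of these, so the VanLip totals rest on a length taken from the values. A listed 0 allowed up to 3 fragments of paired reads, or 0.130 to 0.186 CPM (counts scaled to the library total) in Con and Van and 0.0650 to 0.0704 in VanLip, for counting error only. Read length and depth cannot be told apart from the L654 treatment in any contrast with VanLip. The study's account of the sequenced mice names injection for VanLip only. Whether Con and Van mice had vehicle injections is not stated there, so an effect of injection itself cannot be told apart either.

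The first question was how much of these transcripts the isolated cells carried. Levels were compared in FPKM, fragments scaled to the length of the transcript and to the mapped fragments of the library. Trbc2 had the highest mean of the members, 1.36 FPKM over 9 libraries (range 0.736 to 2.18), and 57.7% of detected genes had a lower mean. Cd3g followed at 0.760 (0.350 to 1.04), Cd3e at 0.508 (0.378 to 0.716), Trac at 0.487 (0.192 to 0.895) and Cd3d at 0.348 (0.175 to 0.630). The NK and cytotoxic members were below these, with means of 0.165 for Gzma, 0.116 for Nkg7, 0.0821 for Gzmb, 0.0429 for Prf1 and 0.0358 for Ncr1. Ranges over the 9 libraries overlapped between each pair of neighbours in this order. Within a library the order was steadier for some pairs, with Cd3d above Gzma in 9 of 9 libraries and Trbc2 above Cd3g in 8, than for others, with Cd3e above Trac in 5. Trbc2 and Cd3g held the first and second place in each group.

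**Figure D1:**
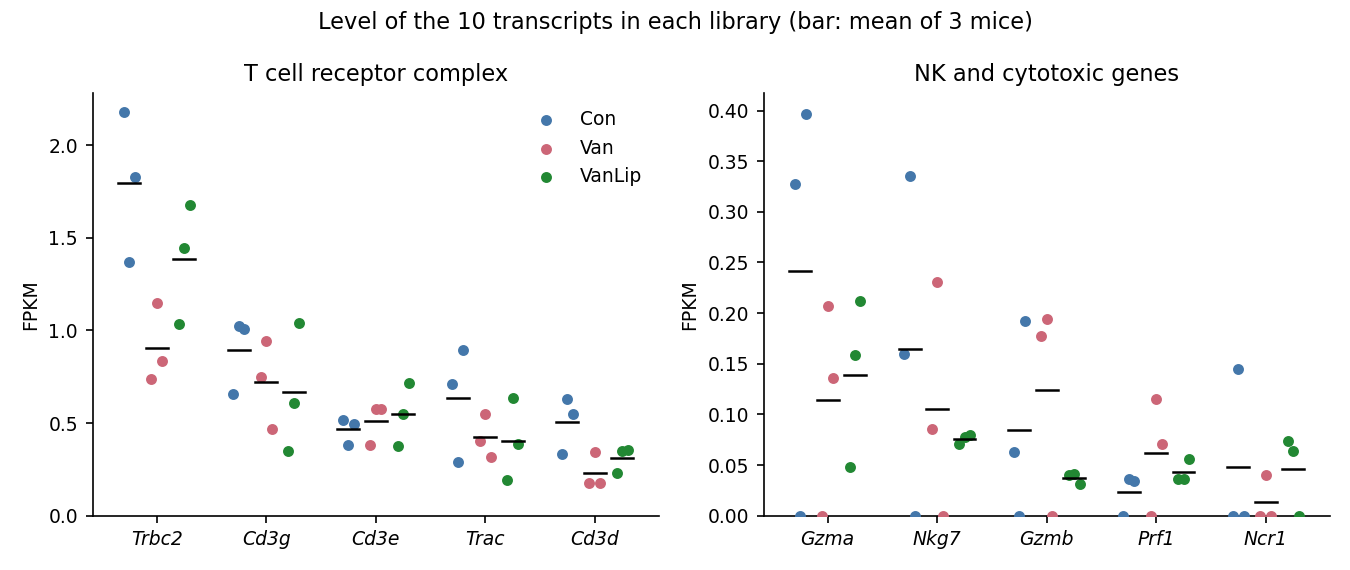
FPKM (linear axis) of the 5 T cell receptor complex genes on the left and the 5 NK and cytotoxic genes on the right, with 1 point per library, coloured by group, and a bar at the mean of 3 mice. Van points of Trbc2 (0.736 to 1.15) and Cd3d (0.175 to 0.343) lie near or below the lowest Con points (1.37 and 0.333), and each NK and cytotoxic gene is at 0 in at least 2 libraries.

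Against the cells that were sought, these levels were small. Summed over 12 monocyte markers, among which Lyz2 (lysozyme) averaged 7922 FPKM and Nr4a1 (a nuclear receptor of Ly6C-low monocytes) 1162 FPKM, the libraries held 10152 to 13155 FPKM. The 5 T cell receptor complex members summed to 2.18 to 4.77 FPKM and the 5 NK and cytotoxic members to 0.207 to 0.787 FPKM. Of the antigens used in the isolation, Itgam (CD11b, kept on the monocytes) averaged 197 FPKM, Kit (CD117) 0.720, Cd3e 0.508, Klrb1c (NK1.1) 0.161 and Siglecf 0.153, and Ly6g was listed at 0 in all 9 libraries. B cell markers summed to 251 to 393 FPKM, nearly all of it Ighm (mean 300 FPKM) with Cd79b at 9.19.

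**Figure D2:**
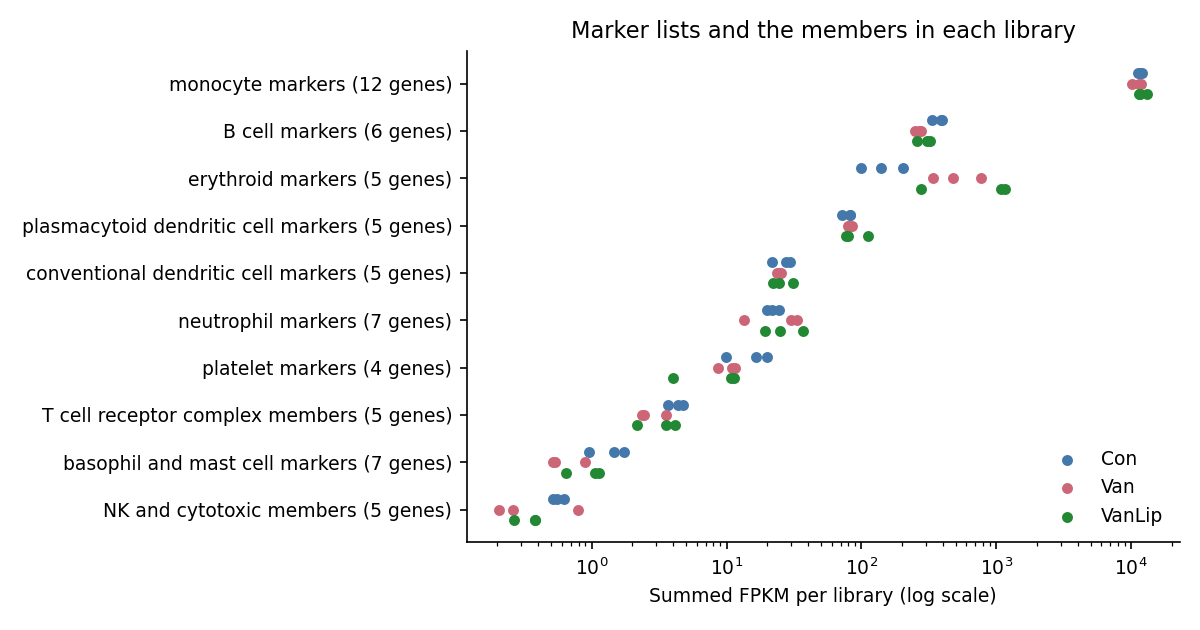
Summed FPKM per library (log axis) of the members and of the marker lists of other blood cells, with 1 point per library, coloured by group. The T cell receptor complex members (2.18 to 4.77) and the NK and cytotoxic members (0.207 to 0.787) lie far to the left of the monocyte markers (10152 to 13155), and the 3 Con points of the receptor complex members are above the 3 Van points.

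The second question was whether vancomycin changed these transcripts. In Con mice Trbc2, the second beta chain constant gene, was at 2.18, 1.37 and 1.83 FPKM in replicates 1, 2 and 3. In Van mice it was at 0.736, 1.15 and 0.836, and in VanLip mice at 1.03, 1.44 and 1.68. Every Van value was below every Con value, and the VanLip values overlapped both groups. Mean normalized counts were 119 ± 26.5 for the Con mice, 59.2 ± 13.1 for the Van mice and 90.5 ± 20.6 for the VanLip mice (SD, n = 3). The log2 fold change of Van against Con was −1.01 (SE 0.34, 95% interval −1.67 to −0.34). Its DESeq2 adjusted p was 0.0652, which missed the threshold of 0.05, and the value before adjustment was 0.00318. VanLip differed from Van by 0.62 (−0.03 to 1.27, adjusted p = 0.274) and from Con by −0.39 (−1.02 to 0.24, adjusted p = 0.575) in the same DESeq2 fit.

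Trbc1, the other beta chain constant gene and not a member, had the same order of group means, at 111 ± 32.1 normalized counts for Con, 52.4 ± 22.0 for Van and 73.6 ± 16.2 for VanLip (SD, n = 3). Its Van against Con log2 fold change was −1.09 (SE 0.40, DESeq2 adjusted p = 0.110), with no overlap between the Con and Van values. When the counts of both genes were summed into 1 row, a choice made after the data had been seen, the log2 fold change was −1.04 and passed the threshold (DESeq2 adjusted p = 0.0151). This call was lost in edgeR (adjusted p = 0.123) and without Con replicate 1 or 3 or Van replicate 1 or 3, where the DESeq2 adjusted p was 0.0678 to 0.141 and the log2 fold change −1.01 to −0.88. The summed value was −0.48 for VanLip against Con (adjusted p = 0.355) and 0.56 for VanLip against Van (adjusted p = 0.249) in DESeq2.

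Cd3d, the CD3 delta subunit, was at 0.333, 0.630 and 0.548 FPKM in Con, 0.175, 0.343 and 0.175 in Van, and 0.228, 0.349 and 0.356 in VanLip. In normalized counts every Van value (22.3 to 42.4) was below every Con value (43.2 to 80.1), but the highest Van library lay close to the lowest Con library, and on the FPKM scale their order was the reverse (0.343 against 0.333). The log2 fold change of Van against Con was −1.15 (SE 0.47, 95% interval −2.06 to −0.23). Its DESeq2 adjusted p was 0.165, and the value before adjustment was 0.0139. VanLip gave −0.73 against Con (adjusted p = 0.380) and 0.42 against Van (adjusted p = 0.688). Cd3d rested on 11.7 to 45.1 reads per Con or Van library.

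The remaining receptor complex members gave no difference larger than the spread between mice. Cd3e, the subunit that the isolation antibody binds, was at 0.519, 0.383 and 0.495 FPKM in Con, 0.380, 0.575 and 0.577 in Van, and 0.378, 0.550 and 0.716 in VanLip. Its groups overlapped, and its log2 fold changes were 0.12 (Van against Con), 0.21 (VanLip against Con) and 0.10 (VanLip against Van), with 95% intervals reaching at most 0.92 upwards and −0.62 downwards. Cd3g, the gamma subunit, was at 0.655, 1.02 and 1.01 FPKM in Con, 0.747, 0.944 and 0.467 in Van, and 0.350, 0.609 and 1.04 in VanLip. Among the VanLip mice alone Cd3g differed by more than among the group means, and its log2 fold changes were −0.33, −0.43 and −0.10 in the same 3 contrasts. Trac, the constant part of the alpha chain, was at 0.712, 0.292 and 0.895 FPKM in Con, 0.402, 0.548 and 0.319 in Van, and 0.192, 0.636 and 0.387 in VanLip. Con replicate 2 was the lowest Con library for Trac and for Cd3e but the highest for Cd3d, and the Trac log2 fold changes were −0.49, −0.64 and −0.15, with DESeq2 adjusted p of 0.828, 0.618 and 0.939.

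Summed over the 5 receptor complex members, the levels were 4.40, 3.70 and 4.77 FPKM in Con, 2.44, 3.56 and 2.37 in Van, and 2.18, 3.59 and 4.17 in VanLip. The sums did not overlap between Con and Van, while VanLip held both the lowest sum of the 9 libraries and 2 sums within or near the Con range. Trbc2 had the largest part in 8 of the 9 sums and Cd3g in that of Van replicate 1, and no test was made of a sum over members.

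The third set of values concerned the cytotoxic granule genes, where a library often held few or no reads. Prf1, which encodes perforin, was at 0, 0.0359 and 0.0345 FPKM in Con, 0, 0.115 and 0.0712 in Van, and 0.0365, 0.0366 and 0.0562 in VanLip. These values came from 6.69 reads summed over the 3 Con libraries, 17.9 over Van and 28.7 over the deeper VanLip libraries. The Van against Con log2 fold change of Prf1 was 1.36 with an SE of 1.34, an interval from −1.28 to 3.99 that holds a fall as well as a rise.

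Gzma, granzyme A, is a tryptase-like protease. It was at 0.327, 0 and 0.397 FPKM in Con, 0, 0.207 and 0.136 in Van, and 0.0476, 0.158 and 0.212 in VanLip. The 2 highest libraries were both Con, but Con replicate 2 was at 0, so the groups overlapped in full. Van differed from Con by −1.10 on the log2 scale (−3.77 to 1.57), VanLip from Con by −0.82 (−3.43 to 1.79) and VanLip from Van by 0.28 (−2.37 to 2.93), with DESeq2 adjusted p of 0.835, 0.824 and 0.953.

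Gzmb, granzyme B, a protease that activates caspases in the target cell, was at 0.0626, 0 and 0.193 FPKM in Con, 0.177, 0.194 and 0 in Van, and 0.0399, 0.0414 and 0.0309 in VanLip. The VanLip values were close together and lay inside the wide spread of the shallower groups. On the log2 scale Van differed from Con by 0.48 (SE 1.37), VanLip from Con by −1.21 (SE 1.37) and VanLip from Van by −1.69 (SE 1.36).

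Nkg7, the granule membrane protein, was at 0.160, 0.335 and 0 FPKM in Con, 0.0857, 0.231 and 0 in Van, and 0.0705, 0.0781 and 0.0799 in VanLip. Ncr1 was at 0.145 in Con replicate 2, 0.0397 in Van replicate 2, and 0.0734 and 0.0636 in VanLip replicates 1 and 2, and at 0 in the other 5 libraries. Con replicate 2 was thus the highest library for both Nkg7 and Ncr1 and at 0 for both granzymes. The log2 fold changes of Nkg7 were −0.67, −1.16 and −0.49 and those of Ncr1 −1.80, −0.17 and 1.62 for Van against Con, VanLip against Con and VanLip against Van, with SEs of 1.31 to 1.34 and 2.42 to 2.51. Over all 9 libraries Ncr1 rested on 35.6 reads, Prf1 on 53.3, Nkg7 on 57.2, Gzmb on 57.6 and Gzma on 80.6, against 572 for Trbc2. Summed over the 5 NK and cytotoxic members, the levels were 0.550, 0.516 and 0.624 FPKM in Con, 0.263, 0.787 and 0.207 in Van, and 0.268, 0.378 and 0.379 in VanLip. Con and VanLip sums did not overlap, although their depths differed, and the Van sums spread over both sides of the Con values. With intervals this wide, a change of several-fold in the NK and cytotoxic members could not be told from no change.

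**Figure D3:**
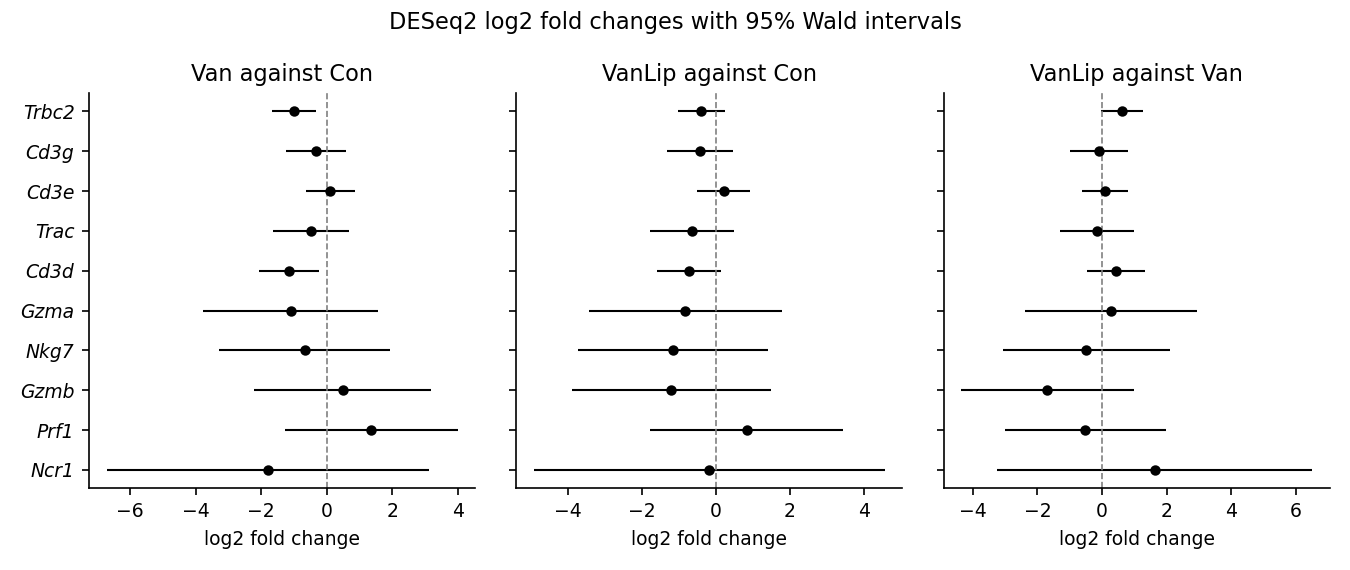
DESeq2 log2 fold changes (points) of the 10 members in the 3 contrasts, with 95% Wald intervals (bars) from 3 mice per group and a dashed line at 0. Trbc2 (−1.67 to −0.34) and Cd3d (−2.06 to −0.23) have intervals below 0 in Van against Con before adjustment over genes, and the intervals of Gzma, Nkg7, Gzmb, Prf1 and Ncr1 are the wider ones in each panel.

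Counted together, 0 of 10 members were called by DESeq2 at an adjusted p of 0.05 in Van against Con, where 4.34% of all genes tested were called. The count was also 0 in VanLip against Con (6.67% of all genes) and in VanLip against Van (9.86% of all genes), where 6 and 9 of the 10 members had an adjusted p and the rest fell under the independent filter. At an unadjusted p under 0.05 there were 2 members in Van against Con, Trbc2 and Cd3d, both lower (5.49% of all genes were lower at that p), and 0 in the other contrasts (13.0% and 15.5% of all genes in either direction). Cd3d no longer reached that p without Con replicate 2 or 3 or Van replicate 1 or 3, which left 1 member, and in libraries thinned to the smallest 0 members reached it. The same 2 genes were the members whose normalized counts did not overlap between Van and Con (7.84% of all genes did not overlap and were lower in Van). edgeR and limma called 0 members in each contrast. The median log2 fold change of the members was −0.58 in Van against Con and −0.54 in VanLip against Con, beside 0.00 and 0.01 over all genes, and both contrasts share the Con mice. In VanLip against Van it was −0.00 beside 0.02. Of the 10 members, 7 had a negative value in Van against Con, 8 in VanLip against Con and 5 in VanLip against Van, where 47.6%, 47.0% and 45.3% of all genes did.

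Other T cell genes were read from a list of 31 symbols, of which 30 could be fitted and Trat1 was at 0 throughout. An adjusted p was given to 29 of them in Van against Con and in VanLip against Van, and to 28 in VanLip against Con. In Van against Con 2 of the 30 fell, Cd247 and Thy1, and 0 rose (2.06% of all genes tested fell). Cd247, the zeta chain that completes the receptor complex, had 111, 93.4 and 161 normalized counts in Con, 55.1, 65.9 and 35.4 in Van, and 59.2 to 111 in VanLip. The Con and Van values did not overlap, the log2 fold change was −1.22 (SE 0.39) and DESeq2 gave an adjusted p of 0.0461, close to the threshold. Thy1, a surface glycoprotein of mouse T cells, had 304, 225 and 312 normalized counts in Con, 85.2, 143 and 159 in Van, and 108, 185 and 255 in VanLip, with a log2 fold change of −1.12 (SE 0.35, DESeq2 adjusted p = 0.0346) for Van against Con. Cd247 and Thy1 were lower than Con in all 3 Van mice, yet the call on Cd247 was lost when any Con or Van library or VanLip replicate 2 was left out, and that on Thy1 without Con replicate 1 or 3 or Van replicate 1 or 2. Both calls were also lost when only Con and Van were fitted, in thinned libraries and in limma, and that on Cd247 with a replicate block. In edgeR their adjusted p were 0.175 and 0.174.

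In VanLip against Con 2 other T cell genes fell, and again 0 rose (3.69% of all genes fell). Trdc, the constant gene of the receptor delta chain, which gamma-delta T cells use in place of the alpha chain, had 208, 283 and 390 normalized counts in Con and 124, 150 and 178 in VanLip (log2 fold change −0.96, SE 0.32, DESeq2 adjusted p = 0.0416). Trdc had 165, 193 and 92.1 in Van, which gave −0.97 against Con and an adjusted p of 0.0611. Il7r, the interleukin 7 receptor of resting lymphocytes, had 770, 712 and 787 in Con, 591, 570 and 408 in Van, and 374, 452 and 574 in VanLip, and fell by 0.70 on the log2 scale from Con to VanLip (SE 0.19, DESeq2 adjusted p = 0.0101). Both genes were lower than Con in all 6 vancomycin-treated mice, and the Il7r call was lost without Con replicate 1 or 3 or VanLip replicate 1 or 2. The Trdc call was lost without Con replicate 2 or 3, Van replicate 1, or VanLip replicate 1 or 2, with TMM library sizes, with a replicate block, and in thinned libraries. Neither gene was called in edgeR (adjusted p of 0.109 for Il7r and 0.182 for Trdc) or in limma. In VanLip against Van none of the 30 was called by DESeq2, 1 had an unadjusted p under 0.05, and edgeR also called none.

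**Figure D4:**
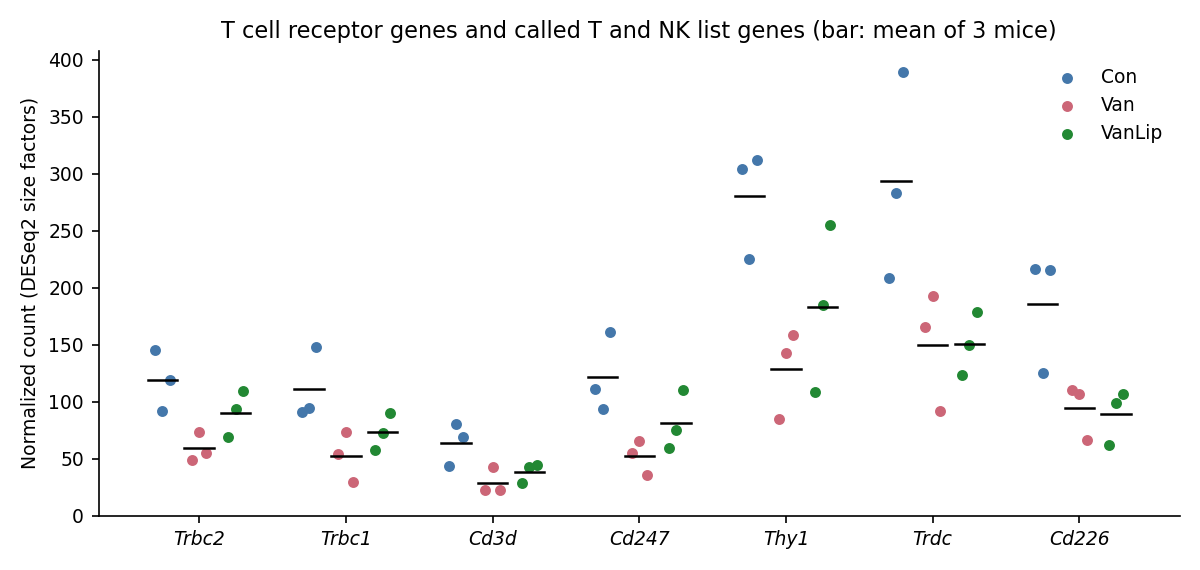
Normalized counts (linear axis) of Trbc2, Trbc1, Cd3d and of 4 called genes of the T and NK lists, with 1 point per library, coloured by group, and a bar at the mean of 3 mice. Con points lie above Van points for each of the 7 genes, and the VanLip means lie between the Con and Van means for Trbc2, Trbc1, Cd3d, Cd247 and Thy1. The 7 genes were picked with these values known, so neither pattern is a separate finding. Not shown are the receptor complex members whose groups overlap (Cd3e, Cd3g and Trac) and the called genes Il7r, Klrk1 and Cd244.

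Over the 30 fitted T cell genes, 25 had a negative Van against Con value and the median was −0.42, beside 0.00 over all genes. Of them, 7 were lower at an unadjusted p under 0.05 (5.49% of all genes) and 9 did not overlap and were lower in Van (7.84% of all genes). In VanLip against Con the median was −0.33 with 23 negative values, and in VanLip against Van 0.08 with 11. The genes of this list with the highest mean levels were Ccr7 (14.6 FPKM), Ms4a4b (9.22) and Cd4 (8.72), of which Ccr7 and Cd4 are also used by dendritic cells. None of these 3 was called by DESeq2 in a contrast, and their Van against Con values were −0.15, −0.05 and −0.30.

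Other NK and cytotoxic genes were read from 35 symbols, of which 28 could be fitted. Ifng, Gzmc, Gzmd, Gzme, Gzmf, Gzmg and Gzmk were at 0 in all 9 libraries. Klrk1, which encodes the activating receptor NKG2D, had 3059, 1976 and 2503 normalized counts in Con, 1666, 1241 and 1117 in Van, and 1464, 1247 and 1792 in VanLip. All 6 vancomycin-treated mice were below the lowest Con mouse, with log2 fold changes of −0.91 (SE 0.20, DESeq2 adjusted p = 0.000471) for Van and −0.74 (SE 0.20, adjusted p = 0.00543) for VanLip. The call in Van against Con held in each fit that left out 1 library and in edgeR (adjusted p = 0.0466) but not in limma. In VanLip against Con it was lost without Con replicate 1 or VanLip replicate 2, in limma and in edgeR (adjusted p = 0.0931). At 7.83 FPKM on average, Klrk1 was well above each of the 10 members.

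Cd226, the adhesion receptor DNAM-1, fell in VanLip against Con, from 216, 125 and 215 normalized counts in Con to 61.9, 98.8 and 107 in VanLip (log2 fold change −1.06, SE 0.34, DESeq2 adjusted p = 0.0336). Its Van values of 110, 107 and 66.6 were also below Con (−0.97, adjusted p = 0.0925), and the VanLip call was lost without Con replicate 1 or 3, Van replicate 2, or VanLip replicate 1 or 2. It was also lost with a replicate block, in thinned libraries, in limma and in edgeR (adjusted p = 0.161). In VanLip against Van, Cd244, which encodes the receptor 2B4, fell from 25879, 22430 and 24613 to 15886, 20228 and 17595 (log2 fold change −0.44, SE 0.11, DESeq2 adjusted p = 0.00201). The Cd244 call held in each fit that left out 1 library and in edgeR (adjusted p = 0.0426) but was lost in limma over all genes with either pseudocount. Cd244 averaged 63.4 FPKM, Ccl5, a chemokine, 108 and Sh2d1b1, an adaptor of 2B4-type receptors, 20.7, and the last pair was not called by DESeq2 in a contrast. The members Ncr1 (0.0358 FPKM) and Prf1 (0.0429 FPKM) were far lower. Which cells the Klrk1, Cd244, Ccl5 and Sh2d1b1 transcripts came from was not tested, so their changes cannot be read as changes of NK cells. In this list 1, 2 and 1 genes fell and 0 rose in Van against Con, VanLip against Con and VanLip against Van (2.06%, 3.69% and 5.28% of all genes fell), with medians of −0.42, −0.24 and 0.11. Of its 28 fitted genes, only 20, 15 and 19 had an adjusted p in these contrasts.

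Markers of other cells were read from the same libraries. Summed B cell markers were 335 to 393 FPKM in Con, 251 to 276 in Van and 257 to 320 in VanLip, and all 6 of these genes had a negative value in Van against Con. Of the 6, only Ighm, the IgM heavy chain, was called there (log2 fold change −0.52, DESeq2 adjusted p = 1.69e-05), and it was also called lower in VanLip than in Con (−0.36, adjusted p = 0.00529). Basophil and mast cell markers, led by Kit and Mcpt8 (means 0.720 and 0.0933 FPKM), summed to 0.962 to 1.74, 0.515 to 0.894 and 0.652 to 1.13, with 6 of 7 negative in Van against Con, and platelet markers, led by Ppbp and Pf4 (5.42 and 3.88), to 9.92 to 19.9, 8.58 to 11.5 and 4.04 to 11.3, with 3 of 4 negative. DESeq2 called 0 of 7 basophil and mast cell, 0 of 4 platelet and 0 of 6 neutrophil genes in Van against Con, with 2, 1 and 1 lower at an unadjusted p under 0.05. Only 4 of the 7 basophil and mast cell genes had an adjusted p there. Erythroid markers, led by Hba-a2 and Hba-a1 (153 and 149), summed to 99.1 to 202 FPKM in Con, 341 to 768 in Van and 277 to 1157 in VanLip. The haemoglobin genes Hbb-bs, Hba-a1, Hba-a2 and Hbb-bt were called higher in Van than in Con (DESeq2 adjusted p = 0.0122, 0.0384, 0.0271 and 0.0214), the first 3 with log2 fold changes of 1.88, 1.76 and 1.82. The same 4 genes were called higher in VanLip than in Con, from 2.45 for Hba-a1 to 2.58 for Hbb-bt (adjusted p = 0.000579 and 0.00045). Summed monocyte markers, most of them Lyz2, overlapped between all groups, at 11299 to 11940, 10152 to 11713 and 11414 to 13155. Single monocyte markers did change, with Ccr2, a chemokine receptor of Ly6C-high monocytes, lower in Van than in Con (log2 fold change −0.83, DESeq2 adjusted p = 0.00048) and higher in VanLip than in Van (1.04, adjusted p = 7.38e-07), and Cx3cr1 (0.43) and Ly6c2 (0.39) also called higher in VanLip than in Van. Neutrophil markers, led by Mmp8 and S100a8 (19.4 and 2.44), summed to 22.1 ± 2.24, 25.5 ± 10.6 and 27.0 ± 8.98 (SD, n = 3), with Ly6g at 0. The sums followed Mmp8, while 5 of the 6 fitted neutrophil genes had a negative value in VanLip against Con (median −1.22) and Ngp, a granule protein, was called lower there (−1.94, DESeq2 adjusted p = 0.0373). Plasmacytoid dendritic cell markers, led by Bst2 and Tcf4 (65.2 and 13.1), gave 71.4 to 82.8, 78.9 to 85.6 and 77.0 to 112, and conventional dendritic cell markers, led by Clec10a and Flt3 (12.2 and 9.38), 21.9 to 29.4, 23.6 to 25.4 and 22.2 to 31.2. Of the scarcer dendritic cell markers, Siglech (−0.89), Clec9a (−1.12) and Xcr1 (−0.85) were called lower in Van than in Con by DESeq2 (adjusted p = 0.0474, 1.55e-05 and 0.00897), Siglech (0.85) and Clec9a (0.67) were called higher in VanLip than in Van, and Xcr1 was called lower in VanLip than in Con (−0.73). The markers in this paragraph beyond the leading genes are named because they were called. The part of these other cells in the T and NK values was not tested.

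Within the 2 groups of members, the genes varied together only loosely over the 9 libraries. Among the 10 pairs of receptor complex members the Pearson correlation of log2 (FPKM + 1) had a median of 0.37, from −0.04 for Cd3e with Cd3d to 0.71 for Cd3d with Cd3g. Among the 10 pairs of NK and cytotoxic members the median was 0.07, from −0.56 for Gzma with Ncr1 to 0.67 for Nkg7 with Ncr1. The libraries share their treatment group and depth, and in counts this sparse a weak correlation is no finding. Of 11709 genes with a mean of at least 1 FPKM, those closest to the mean standardised level of the receptor complex members were Camkmt (r = 0.94), Pla2g2d (0.93), Pja2 (0.92), Gpm6b (0.92) and Btnl6 (0.92), and those closest to the NK and cytotoxic members were Zkscan1 (0.92), Ppt2 (0.89), Slco2b1 (0.88), Ube2k (0.87) and Susd1 (0.86). These are the highest of 11709 values over 9 libraries and are given as a description.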

How the data were processed

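Per the labels and the study's methods, the authors prepared stranded poly-A libraries, aligned paired reads to GRCm38 with HISAT2 2.2.1 and SAMtools 1.9, and assembled with StringTie 2.1.3, whose FPKM values they deposited. The expected counts they deposited came from StringTie by way of tximport and were deposited unscaled. The annotation release is not given in the sources used here. Of the detected genes, 99.1% matched GENCODE M21, which gave positions and sequences.

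Expected counts were rounded and tested in R 4.3.3 with the DESeq2 1.42.0 Wald test (the study's methods give this tool in another version, the Wald test, the Benjamini-Hochberg adjustment and the threshold, while the samples in the fit, its term and the filter are choices made here): 9 libraries in 1 fit, group as the only term, median-of-ratios size factors, default independent filtering, Benjamini-Hochberg adjustment over all genes, two-sided, with calls where the adjusted p was at most 0.05. Normalized counts are counts divided by the size factors. Alternatives used edgeR 4.0.16 (quasi-likelihood), limma 3.58.1 on log2 (FPKM + 1) or log2 (FPKM + 0.1), TMM library sizes, a filter of 10 counts in 3 libraries, only the groups compared, a replicate block, thinned fragments and 1 library left out. The fits were tested on simulated counts. Groups and replicate numbers came from the sample titles.

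Members and gene lists were chosen with earlier results of these data known. Named were all members, each list gene called in a contrast, the 3 genes of both other T and NK lists and the 2 of each marker list with the highest mean FPKM, the isolation antigens and the 5 genes most like each member group, plus Trbc1 for its shared sequence.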

Additional observations from a re-analysis of the deposited data

How the results depend on the processing

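No member was called in any contrast under any of the 18 other settings, and the summed Trbc1 and Trbc2 counts, added after the data had been seen, gave the 1 call among 516 alternative member values. That call was lost in edgeR and in 4 of the 6 fits that left out a Con or Van library. The values for Trbc2 and Cd3d stayed below 0 in Van against Con throughout, but the 2 members at an unadjusted p under 0.05 became 1 in 4 of the fits that left out a library and 0 in thinned libraries. Of 30 member values, 16 kept their direction in every alternative that could be fitted and 14 reversed in at least 1, most of them in genes with a few reads per library. Thinning every library to the smallest one changed VanLip against Con for Ncr1 to 0.98 and VanLip against Van for Gzma to −0.023, and limma on log2 (FPKM + 0.1) changed VanLip against Con for Ncr1 to 0.057. With 1 library left out, log2 fold changes in Van against Con ranged from −0.0063 to 0.29 for Cd3e, −0.11 to 1.83 for Gzmb, −1.83 to 0.33 for Nkg7 and −4.84 to 2.73 for Ncr1. In VanLip against Con they ranged from −0.030 to 0.41 for Cd3e, −1.80 to 0.14 for Gzmb and −0.76 to 4.35 for Ncr1. In VanLip against Van they ranged from −0.15 to 0.30 for Cd3e, −0.57 to 0.21 for Cd3g, −0.71 to 0.17 for Trac, −0.31 to 1.03 for Gzma, −1.12 to 0.24 for Prf1 and −1.07 to 0.67 for Nkg7.

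The sample titles give replicate numbers without saying whether same-numbered mice were paired. Deviations of same-numbered libraries correlated between −0.06 and 0.12 over 9 pairs, and 4 of 9 libraries correlated best with their own number. These correlations cannot show that the numbers carry no shared factor. A replicate block turned Nkg7 to 0.14 and Ncr1 to 1.05 in VanLip against Con and Prf1 to 0.58 and Nkg7 to 0.81 in VanLip against Van, gave 932 calls over all genes in Van against Con and 1644 in VanLip against Van, and changed the calls among other T, NK and cytotoxic genes from 3 to 4 in Van against Con (Cd247 lost, Klra4 and Klra8 gained), from 4 to 3 in VanLip against Con (Cd226 and Trdc lost, Klra4 gained) and from 1 to 2 in VanLip against Van (Klra8 gained).

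The other T, NK and cytotoxic genes gave 3, 4 and 1 calls in Van against Con, VanLip against Con and VanLip against Van. edgeR gave 1, 0 and 1, and limma gave 0 in each contrast with both pseudocounts and 0, 0 and 1 over genes with a mean FPKM of at least 1. Thinned libraries gave 1, 2 and 1. Fitting only Con and Van gave 2 calls (Cd247 and Thy1 lost, Il7r gained), and TMM library sizes gave 3 in VanLip against Con (Trdc lost). Leaving out 1 library gave 2 to 6 calls (6 without VanLip replicate 1, 5 without VanLip replicate 3), 1 to 5 (1 without Con replicate 1 or 3 or VanLip replicate 1 or 2) and 1 to 3 (3 without Van replicate 1, 2 without Van replicate 2 or VanLip replicate 2). Over all genes the calls were 803, 1104 and 1777, against 189, 289 and 727 in edgeR, 92, 237 and 688 in limma on log2 (FPKM + 1), 17, 168 and 516 with 0.1 added, 90, 339 and 829 over genes with a mean FPKM of at least 1, 508, 616 and 1092 in thinned libraries, and 425 to 913, 606 to 1276 and 1142 to 1666 with 1 library left out. The causes were not tested. A depth of 32302770 to 46037855 reads in Con and Van limits the NK and cytotoxic members, which rested on 0 to 15.9 reads per library there.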
